A study of Homo sapiens with 6 samples.

Results

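WNT proteins are secreted, lipid-modified ligands that bind Frizzled receptors on the cell surface. With the LRP5 or LRP6 co-receptor they stabilize beta-catenin, which acts with TCF and LEF factors on DNA, and with ROR receptors they act without beta-catenin. Several DKK proteins and the SFRP and WIF1 proteins block the pathway outside the cell. All genes of these families are grouped below as secreted inhibitors by name, whether or not each one blocks the pathway. R-spondins and LGR receptors raise the amount of Frizzled at the surface by removing the ligases RNF43 and ZNRF3. AXIN and NKD proteins dampen the signal inside the cell. In glioma the pathway is known for its part in stem-like growth and invasion. The genes described here are those whose symbol belongs to the WNT, FZD, DKK, SFRP, LRP5/LRP6, ROR, LGR4 to LGR6, RSPO, RNF43, ZNRF3, AXIN, NKD, WIF1, TCF7 or LEF1 families and whose type is protein-coding. There were 60 such genes among the 61496 features of the deposited table, of which 19887 are protein-coding.

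They were followed in U251, an established human glioma cell line grown in DMEM with serum, in 3 libraries of untreated control cells and 3 libraries of cells exposed to sevoflurane (Sev) gas for 2 h. The labels give concentrations of 5.1%, 3.4% and 1.7% without saying which a library received, and the legend of the study's volcano plot names the highest. The labels do not say that the libraries of a group came from separate cultures, and the general statement of independent experiments in the methods does not name them, so the p-values measure the spread between these libraries, which may be technical. U251 is a single line, and no vehicle gas other than normal culture is described for the controls. The libraries held between 38624292 and 46318311 counts. The first principal component held 69.0% of the variance and separated the groups, and the second, with 10.0%, set Sev replicates 2 and 3 apart from each other. Mitochondrial transcripts took between 1.35% and 1.76% of the counts in control and between 1.13% and 1.35% in Sev libraries. The astroglial markers VIM and NES were abundant, with means of 905 and 223 FPKM in control cells, GFAP was at 20.4 FPKM, and the summed FPKM of 6 such markers ran from 1205 to 1414 in control and from 1215 to 1332 in Sev-treated cells, most of it VIM. Of the 6, VIM, NES and GFAP had no call, SOX2 and S100B fell (log2 fold change -0.72 and -1.1, adjusted p = 0.000367 and 0.00215) and CD44 rose (0.97, adjusted p = 0.000174), and the part of these changes in the results was not tested. Markers of fibroblasts, immune, endothelial, epithelial and neuronal cells summed to at most 3.07 FPKM per list in any library. The neuronal list was between 2.27 and 2.68 in control and between 3.03 and 3.07 in Sev libraries. Of the 16 genes in these lists, SYT1 (neuronal, log2 fold change 0.55, adjusted p = 0.00521) and PECAM1 (endothelial, 0.92, adjusted p = 0.0409) rose, and the part of this in the results was not tested. CD3E, which defines T cells, was at 0 in every library. In bulk libraries, a change in the number of cells that carry a transcript and a change per cell cannot be told apart.

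Counts were normalized with TMM factors and are given as CPM, that is, relative to each library's total multiplied by its TMM factor (0.918 to 1.08). Levels of different genes are compared only as deposited FPKM, which are scaled to length, though not by a single fixed length for every gene. A gene is said to have risen or fallen where the Benjamini-Hochberg adjusted p-value of edgeR's quasi-likelihood test, taken over all 27514 tested features, was under 0.05. The threshold used in the paper is given beside it, that is, an absolute log2 fold change above 1 and an unadjusted p-value below 0.05. Of the 60 genes, 42 had enough counts to be tested and 18 did not. The latter had at most 30 counts in any library, and 4 of them (WNT1, WNT7A, FZD10 and NKD2) had 0 counts in all 6.

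Among the 42 tested genes, 10 rose and 7 fell in Sev-treated cells. The rises include DKK4, which passed the filter on low counts only through the Sev libraries, where it is high. Of all tested features, 22.1% rose and 21.5% fell (43.7% in either direction). Among protein-coding genes 25% rose and 21% fell (45.9% together), so the share of called members, 40.5%, was near the background. Past the paper's threshold were 6 higher (DKK4 among them) and 2 lower genes, against 11.4% higher and 12% lower of all features (23.5% together) and 9.07% and 7.62% of the protein-coding genes (16.7% together). The values of the control and Sev libraries did not overlap for 20 of the 42 genes (47.6%), against 56.5% of all features and 57.8% of the protein-coding genes, and these 20 include the 17 that rose or fell. The median of their log2 fold changes was 0.24 (quartiles -0.22 and 0.82), beside -0.0056 over all features and 0.038 over protein-coding genes. The counts and the median moved with the libraries and the method used. Without control replicate 1 the falls were 3, without Sev replicate 1, 2 or 3 they were 4 in each case, and the median was 0.14 without Sev replicate 2. Scaling by total counts (library size only) lowers the median of all features by 0.14, and the members' median was then 0.099 while the calls were 9 higher and 11 lower instead of 10 and 7. With limma on the deposited log2(FPKM + 1), which differs from the count test in the model, the scaling, the pseudocount and the filter and lowers the median of all features by 0.12, the members' median was -0.00294, with 6 higher and 11 lower among the 31 members that pass its filter. Past the threshold it gave 0 higher and 1 lower, and log2(FPKM + 0.1) gave 1 higher. The genes that moved were spread over the pathway in both directions, as the plot of fold changes by role shows.

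**Figure D1:**
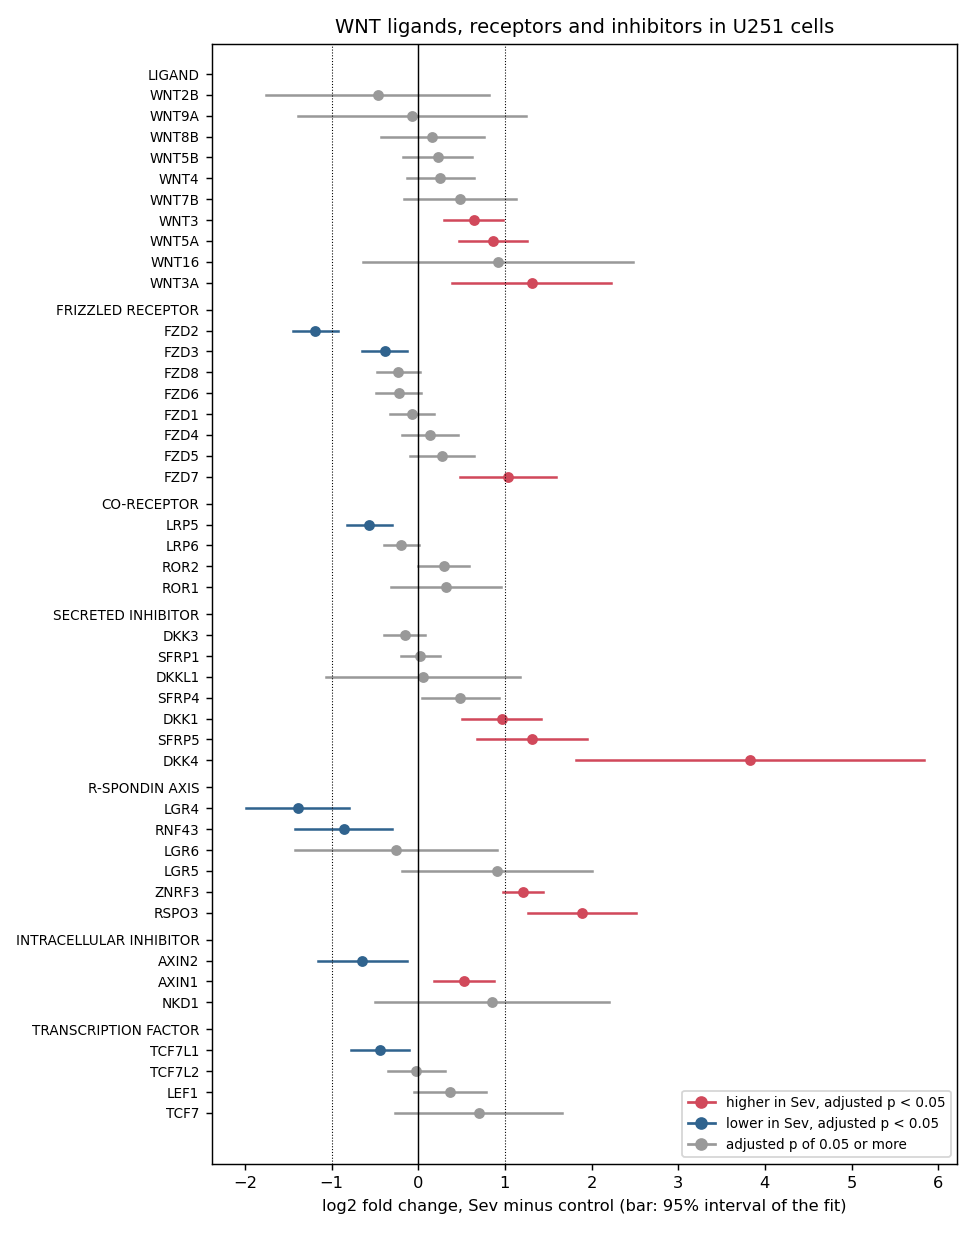
Log2 fold change of each tested gene (Sev minus control, horizontal axis), grouped by role, with the 95% interval of the fit from 3 libraries per group. Red genes rose, blue genes fell, grey genes had an adjusted p-value of 0.05 or more, and dotted lines mark -1 and 1. DKK4 is at 3.82 with the widest interval (1.82 to 5.83), and LGR4 is the lowest at -1.39.

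Most ligand genes were low in these cells. Of 19 ligand genes, 16 were under 1 FPKM in both group means and 9 could not be tested. WNT5A, WNT4 and WNT3 were the ones above it. WNT5A, a ligand known for signalling without beta-catenin, was the most abundant (chromosome 3, 55465715 to 55490539, GRCh38). Its CPM was 23.3, 15.6 and 23.6 in control replicates 1 to 3 and 39.7, 33.7 and 40.5 in the Sev replicates. All Sev libraries lay above all control libraries, a 1.82-fold higher mean (log2 fold change 0.86, standard error 0.17, adjusted p = 0.00494). In FPKM it went from 2.40 ± 0.551 (SD, n = 3) to 3.95 ± 0.505 (SD, n = 3), and its share of the summed ligand FPKM was 29.4% in control and 38.2% in Sev-treated cells.

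WNT3, a beta-catenin-type ligand on chromosome 17 (46762506 to 46833154), also rose. The control libraries held 5.84, 6.69 and 7.58 CPM and the Sev libraries 9.56, 10.5 and 11.3 CPM, with no overlap (log2 fold change 0.64, standard error 0.15, adjusted p = 0.01). With limma on log2(FPKM + 1) without a filter WNT3 had no call (adjusted p = 0.0634). WNT3A, its close relative on chromosome 1 (228007051 to 228061260), is a ligand widely used to switch on beta-catenin signalling. It had few counts, at most 24 in a control and 46 in a Sev library, that is 0.567, 0.278 and 0.288 CPM against 1.22, 0.639 and 0.959 CPM. The ratio of means was 2.49 (adjusted p = 0.0296, log2 fold change 1.31, standard error 0.40). Leaving out control replicate 2 or 3, or Sev replicate 1 or 3, ended the call, with adjusted p-values of 0.0899, 0.1, 0.105 and 0.0645, and limma on log2(FPKM + 1) without a filter gave no call either (adjusted p = 0.108). The second ligand by level in control cells, WNT4, was at 8.58, 7.19 and 8.49 CPM in control and 9.93, 7.85 and 11.2 CPM in Sev libraries. Its groups overlapped, and the 95% interval of its log2 fold change was -0.13 to 0.64 (adjusted p = 0.247). An RNA on the opposite strand, ENSG00000285873, overlaps an exon of WNT4 at means of 0.744 and 1.49 CPM.

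WNT2B was the ligand whose control libraries differed most. It had 19.7 and 15.9 CPM in control replicates 1 and 2, only 3.32 CPM in control replicate 3, and 12.8, 8.52 and 6.82 CPM in the Sev libraries. The groups overlapped (log2 fold change -0.47, interval -1.75 to 0.82, adjusted p = 0.526). Without control replicate 3 the log2 fold change was -0.93 (adjusted p = 0.0367) and without control replicate 1 it was -0.038 (adjusted p = 0.967), the limits of the range over the 6 libraries left out in turn. WNT2B shares exon positions with ST7L on the opposite strand, whose own mean was 13.98 CPM in control and 12.01 CPM in Sev. The remaining tested ligands, WNT5B, WNT7B, WNT8B, WNT9A and WNT16, had no call and means under 4 CPM. WNT16 ran from 0.0798 to 0.796 CPM among the Sev libraries alone, and without Sev replicate 2, the lowest, its log2 fold change was 1.43 with an adjusted p-value of 0.0176, while without Sev replicate 1 it was 0.53 (adjusted p = 0.631). Of the untested ligands, WNT8A had 0 counts in each control library and 5, 5 and 2 counts in the Sev libraries, and WNT2 had 4, 0 and 0 against 0, 6 and 30 counts. WNT6, WNT9B, WNT10A, WNT10B and WNT11 had at most 15 counts in any library.

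The make-up of the Frizzled receptors shifted, while their summed level did not separate the groups. The sum over the 10 receptor genes was 57.3, 48.8 and 58.6 FPKM in the control libraries and 52.0, 63.8 and 49.3 FPKM in the Sev libraries. FZD7 (chromosome 2, 202034587 to 202038445), a receptor known from stem-like cells, rose from 38.8, 36.3 and 43.1 CPM to 70.4, 115 and 56.9 CPM, with Sev replicate 2 well above the other two. No control library reached the lowest Sev library, and the mean was 2.05-fold higher (adjusted p = 0.00987). Its log2 fold change was 1.04, or 0.70 without Sev replicate 2. With limma on log2(FPKM + 1) without a filter FZD7 had no call (adjusted p = 0.0531). FZD2 (chromosome 17, 44557459 to 44559570), a receptor known for binding WNT5A, fell from 17.1, 17.7 and 18.7 CPM to 7.43, 8.06 and 8.002 CPM. Its libraries were tight within each group. The log2 fold change was -1.19 with an adjusted p-value of 0.000254 and a standard error of 0.11, and leaving out any 1 library did not end the call.

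**Figure D2:**
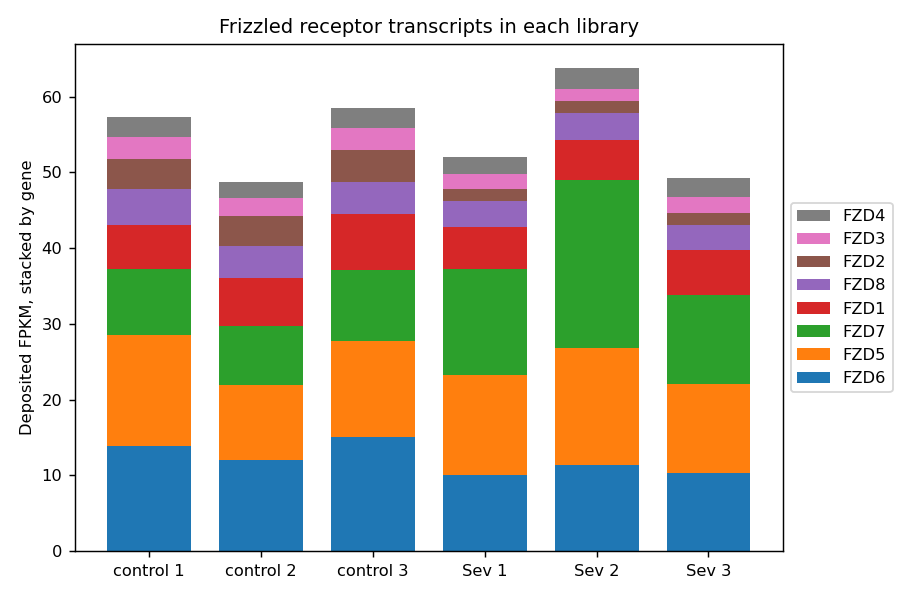
Deposited FPKM of 8 Frizzled receptors (FZD9 and FZD10 were close to or at 0) stacked for each of the 6 libraries. The green FZD7 segment takes 15.8% of the sum in control and 28.5% in Sev-treated cells on average, and the brown FZD2 segment 7.34% and 2.93%.

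FZD3, on chromosome 8, fell more weakly, from 45.7, 40.2 and 46.8 CPM to 36.1, 29.6 and 35.9 CPM (log2 fold change -0.39, standard error 0.11, adjusted p = 0.0252). Leaving out control replicate 1 or 3 or Sev replicate 2 ended the call, with adjusted p-values of 0.0682, 0.0875 and 0.0543. By length-scaled level FZD6 came first in control cells with 13.7 ± 1.56 FPKM (SD, n = 3), FZD5 second with 12.4 ± 2.39 and FZD7 next with 8.68 ± 0.807. FZD6 and FZD5 did not differ beyond their spread. In Sev-treated cells FZD7 came first with 16.0 ± 5.50 FPKM, followed by FZD5 with 13.5 ± 1.84 and FZD6 with 10.6 ± 0.728, and the SD of FZD7 spans the value of FZD5. FZD5 was at 119, 83.5 and 105 CPM in control and 121, 146 and 105 CPM in Sev libraries (interval of the log2 fold change -0.094 to 0.65). FZD6 was at 64.9, 58.5 and 72.6 CPM against 53.0, 62.4 and 52.5 CPM (interval -0.48 to 0.035). Without a call, FZD6 and FZD8 had log2 fold changes of -0.22 and -0.23, and both fell with library size only and in the 3 settings of limma on log2 FPKM. BAALC-AS1 overlaps an exon of FZD6 on the opposite strand, with means of 6.47 CPM in control and 3.89 CPM in Sev. FZD1 and FZD4 had overlapping groups and log2 fold changes of -0.073 and 0.14, and PRSS23, at a mean of 109 CPM in control and 49.6 CPM in Sev, shares exon positions with FZD4 on the opposite strand.

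Of the co-receptors, LRP5 (chromosome 11, 68312609 to 68449275) fell from 50.8, 47.9 and 54.4 CPM to 31.0, 39.5 and 33.1 CPM. Every Sev library was below every control library (log2 fold change -0.56, standard error 0.11, adjusted p = 0.00563). LRP6, the more abundant of the pair with 9.66 FPKM in control cells against 7.03 for LRP5, was at 127, 116 and 110 CPM in control and 97.3, 111 and 100.4 CPM in Sev libraries. Its groups overlapped and its log2 fold change was -0.19 (interval -0.40 to 0.013, adjusted p = 0.115). LRP6 fell with library size only (adjusted p = 0.0164) and in the 3 settings of limma on log2 FPKM (adjusted p = 0.0215, 0.022 and 0.0352). ROR2 and ROR1, receptors for WNT5A, were lower in level, at 1.11 and 0.209 FPKM in control cells. ROR2 had 8.27, 7.24 and 7.75 CPM in control and 9.19, 9.10 and 10.2 CPM in Sev libraries (log2 fold change 0.29, adjusted p = 0.0984), and ROR1 had overlapping groups.

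Among the secreted inhibitors, DKK1 stood out by its level. DKK1 encodes the LRP5/LRP6 antagonist Dickkopf-1 and is itself a known target of beta-catenin. It had the highest FPKM of all 60 genes in both groups and took 81.7% of the summed inhibitor FPKM in control and 89.1% in Sev-treated cells. It rose from 336, 313 and 332 CPM to 636, 832 and 448 CPM, a 1.95-fold higher mean (log2 fold change 0.96, standard error 0.20, adjusted p = 0.00603). The control libraries were close together, the Sev libraries were spread widely, and the groups did not overlap. As with FZD7, Sev replicate 2 was the highest and Sev replicate 3 the lowest of the treated libraries, and the log2 fold change of DKK1 was 0.73 without replicate 2 and 1.17 without replicate 3. DKK1 lies on chromosome 10 (52314296 to 52318042), and exons of PRKG1-AS1 on the opposite strand overlap it. PRKG1-AS1 had means of 2.58 CPM in control and 3.06 CPM in Sev, so it holds few reads beside DKK1.

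The 250 bases before the RefSeq start were available for 42 of the 60 genes and were searched on both strands for the TCF/LEF letters CTTTGAT and CTTTGAA, for the CRE letters TGACGTCA and for the AP-1 letters TGACTCA. The TCF/LEF letters were found in 1 of the 42, DKK1, and in 5.94% of 35116 such windows of all genes. The CRE and AP-1 letters were in 0 of the 42, and in 1.65% and 4.2% of all windows. The members' windows were rich in G and C, with a median of 70.8% against 58.0% over all genes. The windows of DKK1 and LGR4 are shown because these are the most abundant gene that rose and the most abundant gene that fell. The DKK1 window is chr10:52314031-52314280 on the plus strand and the LGR4 window chr11:27472791-27473040 on the minus strand (both GRCh38.p14), read 5′ to 3′, with capitals marking the TCF/LEF letters, which begin 95 bases before the start of DKK1 (first base at -95).
DKK1: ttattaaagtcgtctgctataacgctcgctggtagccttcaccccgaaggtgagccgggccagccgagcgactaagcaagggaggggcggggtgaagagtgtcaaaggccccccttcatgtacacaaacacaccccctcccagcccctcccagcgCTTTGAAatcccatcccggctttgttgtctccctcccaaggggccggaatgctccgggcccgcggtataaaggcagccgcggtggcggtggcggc
LGR4: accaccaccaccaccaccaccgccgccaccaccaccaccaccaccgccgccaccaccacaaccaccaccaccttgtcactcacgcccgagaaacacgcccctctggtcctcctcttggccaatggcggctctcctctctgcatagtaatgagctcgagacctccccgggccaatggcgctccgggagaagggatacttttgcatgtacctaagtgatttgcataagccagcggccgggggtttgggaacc
A match of letters describes the sequence and does not show a bound factor, and a missing match says nothing about one.

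SFRP5 rose from a low level, and DKK4 was called on few counts. SFRP5, a secreted Frizzled-related protein that captures ligands (chromosome 10, 97766751 to 97771952), had 0.898, 0.782 and 0.474 CPM in control and 1.75, 1.86 and 1.72 CPM in Sev libraries, from 23 to 70 counts. All Sev libraries were above all controls (log2 fold change 1.31, standard error 0.27, adjusted p = 0.00661). DKK4, a relative of DKK1, had 0, 0 and 4 counts in the control libraries and 10, 17 and 27 counts in the Sev libraries. A gene that passes the filter only through the group where it is high had to differ, so its call is a description. Its fitted log2 fold change of 3.82 (adjusted p = 0.00942) depends on the few control counts and was 7.21 without control replicate 3, and without Sev replicate 2 or Sev replicate 3 it was not tested.

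The other abundant genes of the inhibitor group stayed without a call. SFRP1, second in level with 16.4 FPKM in control and 15.1 FPKM in Sev-treated cells, had 94.7, 93.6 and 86.3 CPM against 86.9, 105 and 87.5 CPM. The interval of its log2 fold change was -0.20 to 0.25. DKK3, the next in level, had 148, 130 and 132 CPM against 119, 138 and 110 CPM (log2 fold change -0.16, adjusted p = 0.251). It fell with library size only (adjusted p = 0.0329) and with limma on filtered log2(FPKM + 1) and log2(FPKM + 0.1) (adjusted p = 0.0413 and 0.0422). SFRP4 had groups that did not overlap, 6.15, 6.34 and 4.70 CPM against 8.39, 6.44 and 9.24 CPM, with an adjusted p-value of 0.071, which ran from 0.03 without Sev replicate 2 to 0.213 without control replicate 3. DKKL1, a relative of the DKK genes, had 5 to 22 counts and overlapping groups (log2 fold change 0.057, adjusted p = 0.935). WIF1 and SFRP2 had 0 to 3 counts in every library and DKK2 had at most 23.

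**Figure D3:**
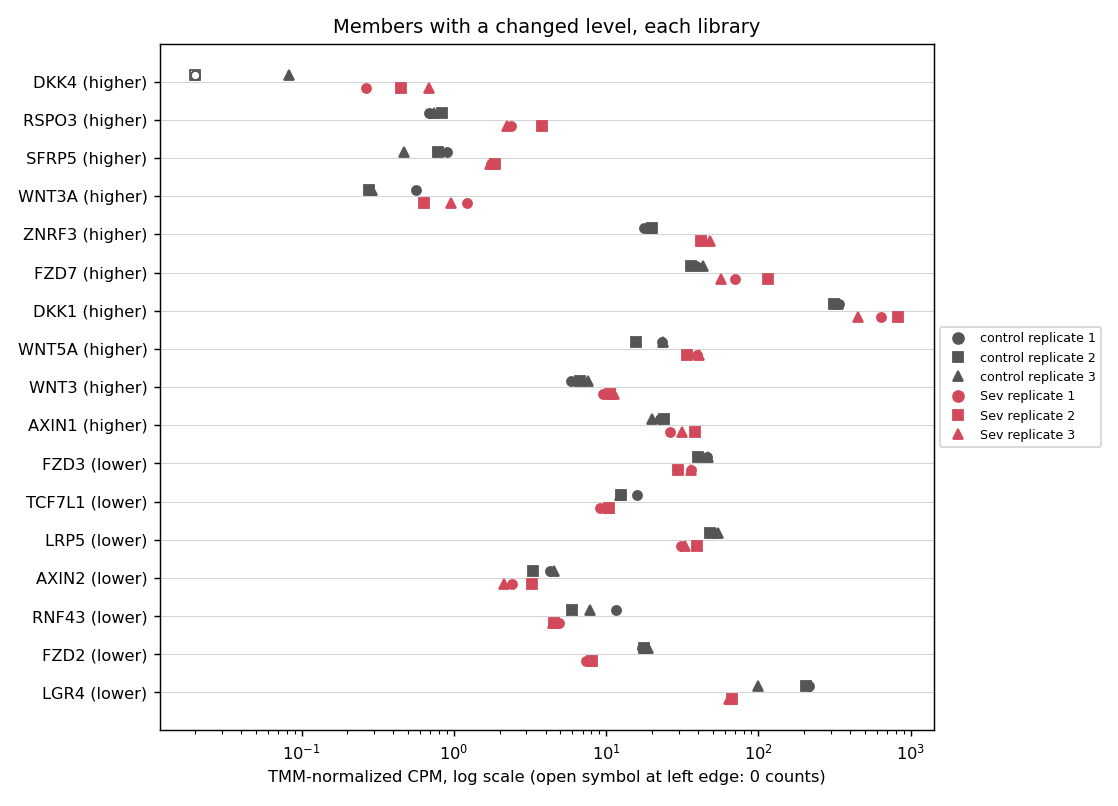
TMM-normalized CPM (log scale) of the 17 genes that rose or fell, 1 symbol per library (circle, square and triangle for replicates 1, 2 and 3, grey for control, red for Sev, open symbols for 0 counts). The groups are apart for every gene shown. Within a group, LGR4 in control (99.1 to 214 CPM) and FZD7 in Sev (56.9 to 115 CPM) are among the genes spread widely. Others include DKK4 in Sev (0.265 to 0.682 CPM) and WNT3A in control (0.278 to 0.567 CPM), both on few counts.

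Apart from DKK4, with its few counts, the largest rise and the largest fall among the 42 tested genes were in the R-spondin axis. LGR4, a receptor for R-spondins on chromosome 11 (27365961 to 27472775), was second in FPKM of all 60 genes in control cells and seventh in Sev-treated cells. It was at 214 and 204 CPM in control replicates 1 and 2 and at 99.1 CPM in control replicate 3, against 65.7, 67.4 and 64.0 CPM in the Sev libraries. The Sev libraries were close to each other and below even the low control library. For LGR4 the log2 fold change was -1.39 with a standard error of 0.26 (adjusted p = 0.00401), and it was -1.67 without control replicate 3 and -1.21 without control replicate 1. LGR4 and WNT2B were both lower in control replicate 3 than in the other controls, and LGR4 fell with or without that library.

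RSPO3 (chromosome 6, 127118604 to 127197765), the most abundant of the R-spondin ligand genes, rose from 0.686, 0.833 and 0.742 CPM to 2.39, 3.78 and 2.22 CPM, on 29 to 36 and 88 to 142 counts. This 3.71-fold higher mean (log2 fold change 1.89, standard error 0.27, adjusted p = 0.00129) kept its call whichever library was left out. RSPO1, RSPO2 and RSPO4 had at most 8 counts in a library. ZNRF3 (chromosome 22, 28883592 to 29057487), a membrane ligase that removes Frizzled receptors, rose from 17.9, 20.01 and 19.6 CPM to 42.6, 41.8 and 48.1 CPM. Its groups lay far apart with little spread (log2 fold change 1.20, standard error 0.10, adjusted p = 0.000167), and it had the smallest p-value of all 42 genes.

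RNF43, the related ligase on chromosome 17 (58352500 to 58417595), went the other way, from 11.6, 5.96 and 7.79 CPM to 4.94, 4.58 and 4.47 CPM (log2 fold change -0.86, standard error 0.24, adjusted p = 0.0223). Control replicate 1 was high, and without it the log2 fold change was -0.57 (adjusted p = 0.0506). It also missed the limit when Sev replicate 1, 2 or 3 was left out, with adjusted p-values of 0.0535, 0.0536 and 0.0585, and with limma on log2(FPKM + 1) without a filter (adjusted p = 0.102). Exons of SUPT4H1 and ENSG00000285897 on the same strand and of TSPOAP1-AS1 on the opposite strand overlap RNF43. SUPT4H1 and TSPOAP1-AS1 had log2 fold changes of 0.52 (adjusted p = 0.0217) and -1.62 (adjusted p = 0.00526). ENSG00000285897 had means of 1.36 CPM in control and 2.16 CPM in Sev (log2 fold change 0.67, adjusted p = 0.344). It is not stated how the counting divided such reads, so the value of RNF43 is uncertain. LGR5, a stem cell marker and target of beta-catenin, was at 1.09, 1.16 and 0.742 CPM in control and 1.14, 3.41 and 1.06 CPM in Sev libraries. Replicate 2 stood above the other Sev libraries. The log2 fold change was 0.91 (adjusted p = 0.157), and 0.15 without Sev replicate 2. The antisense RNA ENSG00000257761, which overlaps an exon of LGR5, had means of 0.120 and 0.463 CPM. LGR6 had 11 to 45 counts and overlapping groups.

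AXIN1 and AXIN2 changed in opposite directions, both near the limit of the test. AXIN1, the scaffold of the complex that degrades beta-catenin (chromosome 16, 287440 to 352673), was at 22.6, 23.98 and 20.1 CPM in control and 26.1, 38.2 and 31.7 CPM in Sev libraries (log2 fold change 0.52, standard error 0.15, adjusted p = 0.0235). Its call ended with library size only, in the 3 settings of limma on log2 FPKM (adjusted p = 0.0984, 0.098 and 0.149), and also on leaving out control replicate 1 or 3 or Sev replicate 2 or 3 (adjusted p = 0.0651, 0.0884, 0.0577 and 0.0507). AXIN2, the feedback inhibitor that is the usual read-out of beta-catenin activity (chromosome 17, 65528563 to 65561647), was at 4.30, 3.31 and 4.53 CPM in control and 2.42, 3.25 and 2.12 CPM in Sev libraries. Control replicate 2 and Sev replicate 2 nearly met, and the fall was slight beside its error (adjusted p = 0.0465, log2 fold change -0.64, standard error 0.22). There was no call with DESeq2's Wald test, without a filter on counts, with limma on log2(FPKM + 0.1) or, without a filter, on log2(FPKM + 1), or on leaving out control replicate 1 or 3 or Sev replicate 1 or 3 (adjusted p = 0.114, 0.137, 0.126 and 0.118). ENSG00000266076 overlaps AXIN2 on the same strand, with means of 0.240 CPM in control and 0.0355 CPM in Sev. NKD1, another target and inhibitor, had 17 to 30 counts in control and 11, 71 and 37 counts in Sev libraries. Its log2 fold change was 0.85 (adjusted p = 0.268), 1.30 without Sev replicate 1 (adjusted p = 0.0451) and 0.11 without Sev replicate 2 (adjusted p = 0.884).

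Of the 4 transcription factors that carry beta-catenin to DNA, TCF7L2 was the most abundant, with 11.1 FPKM in control and 9.92 FPKM in Sev-treated cells. It was at 73.8, 96.9 and 93.9 CPM against 72.2, 92.4 and 96.2 CPM, with an interval of the log2 fold change of -0.35 to 0.31. TCF7L1, a factor known mostly as a repressor (chromosome 2, 85133410 to 85310388), fell from 15.9, 12.5 and 12.4 CPM to 9.11, 10.4 and 10.5 CPM (log2 fold change -0.44, standard error 0.14, adjusted p = 0.038). With 1 library left out at a time, only the fit without control replicate 2 kept that call (adjusted p = 0.048), and those without control replicate 1 or 3 or Sev replicate 1, 2 or 3 did not (adjusted p = 0.103, 0.0532, 0.12, 0.0575 and 0.06). Without a filter on counts TCF7L1 also had no call (adjusted p = 0.0508).

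TCF7 varied widely within both groups, at 35.8, 16.5 and 24.8 CPM in control and 58.4, 48.3 and 18.7 CPM in Sev libraries. Its groups overlapped, and the log2 fold change of 0.70 (interval -0.26 to 1.66, adjusted p = 0.208) was 1.06 without Sev replicate 3 (adjusted p = 0.0271) and 0.38 without Sev replicate 1 (adjusted p = 0.529). SKP1 shares exon positions with TCF7 on the opposite strand and had a log2 fold change of 0.58 (adjusted p = 0.000713), so reads of either could affect the count of TCF7. LEF1 was at 5.30, 7.12 and 4.86 CPM in control and 7.17, 6.89 and 8.15 CPM in Sev libraries (log2 fold change 0.36, adjusted p = 0.139), and its adjusted p-value ran from 0.0424 without control replicate 2 to 0.364 without control replicate 3.

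A further 93 genes of the pathway, in 6 lists, were compared in the same fit. Of the 90 that could be tested, 26 rose and 14 fell (44.4%), against the 43.7% of all features. Of 21 genes for the cytoplasmic transducers and the destruction complex, 5 rose and 1 fell, with a median log2 fold change of 0.11. APC, a scaffold of that complex, rose from 77.3 ± 1.60 to 149 ± 23.2 CPM (SD, n = 3). Of 16 nuclear cofactors of beta-catenin 4 rose and 3 fell, and of 13 genes for planar polarity and the branch without beta-catenin 3 rose and 5 fell. Of 6 genes listed under export and inactivation of the ligands 1 rose (TRABD2A) and 1 fell (LYPD6). LYPD6 acts at LRP6 instead, and none of the export and inactivation genes proper fell. Of 16 extracellular partners 2 rose and 2 fell. The genes named next are those that ranked first by p-value, 5 rising and 5 falling.

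Of 18 tested genes known as common targets of the pathway outside the families above, 11 rose and 2 fell (72.2%, against 43.7% of all features), with a median log2 fold change of 0.87. The list was written with earlier results of these data known, so its share is a description of these genes. Many of these genes are targets of several pathways. FOSL1, an AP-1 subunit, rose from 13.5, 19.1 and 16.3 CPM to 83.4, 97.0 and 78.8 CPM (log2 fold change 2.41, adjusted p = 6.67e-05). ID2, an inhibitor of bHLH factors, rose from 37.5, 31.0 and 32.3 CPM to 131, 168 and 108 CPM (log2 fold change 2.01, adjusted p = 0.000168). CCND1, which encodes cyclin D1, and CD44, an adhesion receptor, rose to 1.97 and 1.96 times their control means. CEMIP, a hyaluronan-binding protein, fell from 129, 112 and 103 CPM to 40.0, 50.1 and 31.0 CPM (log2 fold change -1.50, adjusted p = 0.000568).

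At the cell surface, TRABD2A, a membrane protease that inactivates WNT ligands, rose from 0.709, 0.606 and 0.824 CPM to 9.72, 5.83 and 5.70 CPM (log2 fold change 3.30, adjusted p = 0.000174). NDP, the norrin ligand of FZD4, fell from 10.6, 6.39 and 7.85 CPM to 2.50, 2.71 and 2.60 CPM (log2 fold change -1.67, adjusted p = 0.000776), while FZD4 itself had overlapping groups. RECK, a co-receptor for WNT7 ligands, had a log2 fold change of -0.96 (adjusted p = 0.000407), and LYPD6, an enhancer of signalling at LRP6, one of -1.03 (adjusted p = 0.000546). INVS, a ciliary protein that steers the pathway toward its planar polarity branch, had -0.62 (adjusted p = 0.00152). For each of these 5 genes, chosen by their p-values, all Sev libraries lay on one side of all control libraries. The same held for 56.5% of all tested features and 57.8% of the protein-coding genes.

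**Figure D4:**
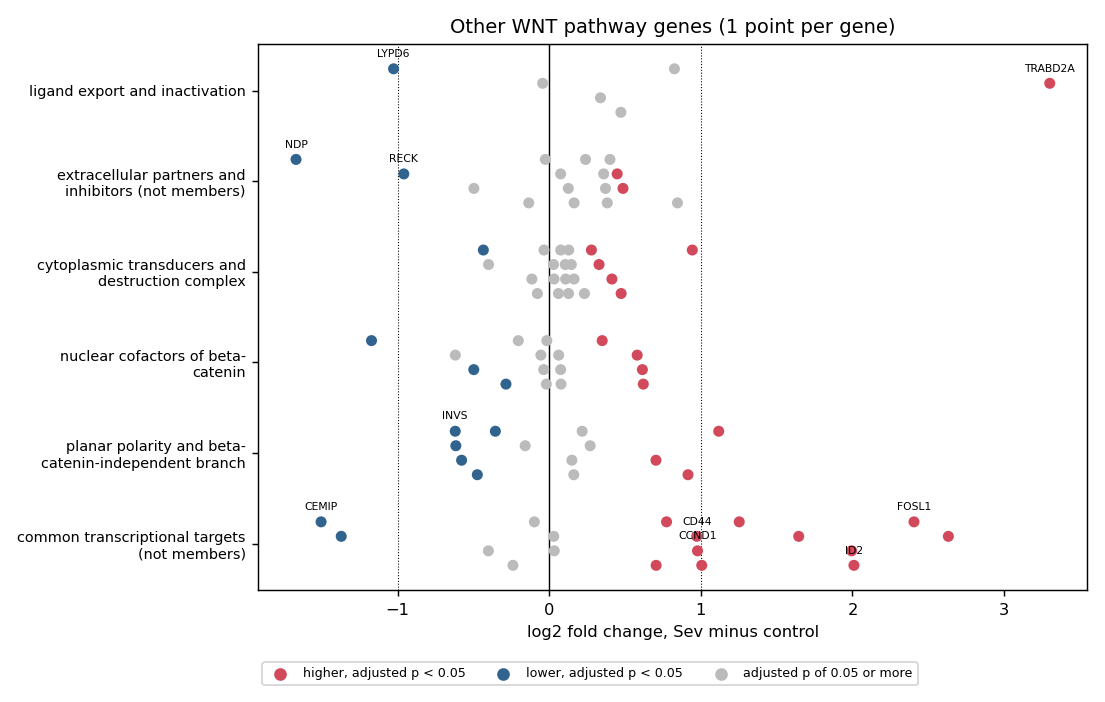
Log2 fold change (Sev minus control, horizontal axis) of the 90 tested pathway genes outside the main families, 1 point per gene in 6 lists, with the 5 rising and 5 falling genes of smallest p-value named. The points of the target list reach from -1.50 (CEMIP) to 2.63 (BMP4), and those of the cytoplasmic transducers stay between -1 and 1.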

How the data were processed

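Total RNA of U251 cells was depleted of ribosomal RNA, ligated to adapters that mark the strand and sequenced in paired ends, per the labels and the paper's methods. The authors deposited raw counts per gene and, beside them, FPKM, a measure scaled by library size and by length. The FPKM of a gene did not always follow its counts by a single length. DKK2 had 0.000481 FPKM on 1 count in Sev replicate 1 and 0.0186 FPKM on 5 counts in Sev replicate 2. How the length was set is not given in the sources used here. The submitters' processing notes name bcl2fastq 2.19, featureCounts and hg18. The aligner, the annotation and the strand setting are not given in the sources used here. Symbols were joined through the Ensembl identifiers (60295 of 60564 matched), and gene types and positions through GENCODE 29 (GRCh38), so positions are not those of the authors' alignment.

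Counts passed filterByExpr, were scaled with TMM factors and entered edgeR's quasi-likelihood test (glmQLFit, glmQLFTest, edgeR 4.0.16, R 4.3.3), 3 libraries against 3, on all features, with Benjamini-Hochberg adjustment. An exact permutation test of 3 against 3 cannot go under 0.1. A standard error is |log2 fold change| over the root of the F statistic, and 95% intervals use the t quantiles of the fit. Precision is limited by the 3 libraries per group and, for genes with few counts, by depth.

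All members found by the rule are accounted for by role. Given library by library were the members with a call and the 2 with the highest FPKM in each role, and of the other pathway genes the 5 rising and 5 falling genes of smallest p-value (5 of them by fold change only). Others, such as APC, BMP4, WNT2B and LGR5, were named after their values were seen. The members and lists, from general knowledge, were chosen with earlier results of these data known, and the promoter letters after the values were seen.

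The alternatives used library size only, DESeq2's size factors, the Wald test of DESeq2 1.42.0, other count filters, protein-coding genes alone, a block on the replicate number, fits that leave out a library, and limma 3.58.1 on log2 of FPKM plus 1 or 0.1. Of 13668 abundant genes, 50.5% to 68.0% differed between replicates by more than counting noise, so no library was a copy of another.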

Additional observations from a re-analysis of the deposited data

How the results depend on the processing

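None of the 17 members with a call turned its direction in an alternative in which it was tested. DKK4 was not tested with at least 10 counts in every library or without Sev replicate 2 or 3, and DKK4, RSPO3 and WNT3A were not tested in the filtered FPKM fits. Leaving out each library in turn gave 8 to 10 members higher and 3 to 7 lower, 5 to 8 higher and 2 to 3 lower past the threshold, a median log2 fold change of 0.14 to 0.29, and 22 to 26 other pathway genes higher and 10 to 15 lower. The lowest count of falling members, 3, was without control replicate 1. The calls of FZD3, AXIN1, AXIN2, WNT3A, RNF43 and TCF7L1 were each lost in at least 3 of these 6 fits. Limma on log2 FPKM, which changes the model, scaling, pseudocount and filter together, gave no call for AXIN1 in each of its 3 settings, none for AXIN2 on log2(FPKM + 0.1), and without a filter none for FZD7, WNT3, WNT3A, RNF43 and AXIN2. It gave 6 members higher in each of them. Falling members were 11 with library size only and 11 with limma on log2(FPKM + 1). Past the threshold, limma on log2(FPKM + 1) gave 0 higher and 1 lower with or without the filter, and log2(FPKM + 0.1) gave 1 higher. The pseudocount lowers fold changes of weakly expressed genes. The median was 0.099 with library size only, -0.00294 and -0.00283 on filtered log2(FPKM + 1) and log2(FPKM + 0.1), and 0.00886 without the filter. With the replicate number as a block, 10 members were higher and 5 lower, with AXIN2 and TCF7L1 lost, and the other pathway genes gave 27 and 14. The median was then 0.24, with 5 members higher and 2 lower past the threshold. Deviations of same-numbered libraries correlated at -0.00723, 0.00351 and 0.0270, and not every library correlated best with its own number, so the number was not taken as a pairing. For the 18 untested genes the depth does not show whether a level differed.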
